A study of Mus musculus with 12 samples.

Results

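The p53 circuit was examined in mouse CD8+ T cells, the cytotoxic lymphocytes, after inhibition of EZH2. Its 31 genes, listed by symbol among the 24421 genes of the count tables, are Trp53 itself, its regulators and known direct targets, without Cdkn1a and the Bcl2 family. EZH2 is a histone methyltransferase, the catalytic part of a Polycomb complex that keeps genes silent. Polyadenylated RNA was sequenced from CD8+ T cells of C57BL/6 mouse spleen, given either an EZH2 inhibitor (EZH2i, 6 libraries) or DMSO, the solvent control (6 libraries). The sources used here do not give the inhibitor, its dose and time, the culture conditions or the age of the mice. No label ties the libraries to separate mice or cultures either, so the p-values measure only how these libraries vary, which may be technical variation.

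p53 is a transcription factor that is made continuously and destroyed just as fast, because Mdm2, a ubiquitin ligase and itself a p53 target, marks it for the proteasome. DNA damage and other stresses block that destruction, and p53 then switches on genes that halt the cell cycle, repair DNA, adjust metabolism or start apoptosis. In lymphocytes the circuit limits the expansion of damaged, rapidly dividing cells.

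p53 binds a site made of 2 copies of a 10-base element, often with a short spacer between them, in promoters or first introns. The RefSeq table for GRCm38.p6 held promoter windows, from 250 bases before to 50 after the transcription start, for 25 of the 31 genes, 39 windows in all. Both strands were searched for the p53 decamer and for 2 decamers with 0 to 13 bases between them and at most 2 mismatches. The single decamer was found in 30.8% of these windows against 8.36% of all 32851 windows in the table, and the full site in 20.5% against 10.1%. Some genes have several windows, which can overlap. The genes were listed as known targets and regulators of p53, so this excess is no finding about these libraries. The genes with a full site were Aen, Ccng1, Ckap2, Gadd45a, Gtse1, Polk and Sesn1. The sites of 5 of them are shown because they let the motif be set beside the response. Those of Aen and Gtse1 are not shown. The Aen site was counted in 2 overlapping windows, after the start in the upstream window and before it in the other. The Gtse1 site spans the start. Capitals mark decamer bases that match the consensus, and lower case marks mismatches, spacer and flanks.
Ccng1, chr11:40755454-40755489, minus strand: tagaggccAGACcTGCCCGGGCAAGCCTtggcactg
Polk, chr13:96519390-96519426, minus strand: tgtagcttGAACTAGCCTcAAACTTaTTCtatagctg
Gadd45a, chr6:67037430-67037476, minus strand: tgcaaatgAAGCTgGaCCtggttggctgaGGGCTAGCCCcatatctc
Sesn1, chr10:41887245-41887283, plus strand: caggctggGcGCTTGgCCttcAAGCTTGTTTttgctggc
Ckap2, chr8:22185995-22186030, minus strand: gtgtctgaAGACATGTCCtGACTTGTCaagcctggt
Of these, Polk and Gadd45a rose with EZH2i and the others did not pass the test, as described below. Aen and Gtse1 did not pass it either. For Polk and Sesn1 the site lies at a start inside the gene. Their windows further upstream, at chr13:96542530-96542829 for Polk and chr10:41810324-41810623 for Sesn1, held no decamer and no full site. A match is a description of letters, not evidence of binding. The promoter windows of the genes that rose most, Plk2 and Phlda3, held no match to either motif.

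The libraries held 19610258 to 31206228 counts with EZH2i and 17215483 to 28092434 with DMSO. All 7 genes that define CD8+ T cells, such as Cd8a and Cd3e, were measured at over 1 CPM. CPM are counts scaled to a common library size with TMM factors. The summed levels of the 7 were 3026 to 4361 CPM with EZH2i and 4147 to 5459 CPM with DMSO. Of the 7, 4 were called lower with EZH2i, against 6.05% of all tested genes. Library 6 stood apart from the other 5 in each group, so results are also given without both libraries numbered 6. Of the 15 G2 and mitosis genes, such as Top2a and Mki67, none was called by edgeR (2 had an unadjusted p under 0.05, and DESeq2 called 2 lower), with summed levels of 4575 to 6544 CPM with EZH2i and 5275 to 7300 CPM with DMSO. With the replicate number as a block 7 of the 15 were lower, against 24.3% of all tested genes. Without both libraries numbered 6, 8 of the 15 were lower, against 20.9% of all tested genes.

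Genes of the p53 circuit moved in a scattered way. With EZH2i, 7 rose: the stress kinase gene Plk2 (2.104-fold), the Akt antagonist Phlda3 (1.95-fold), the membrane protein gene Perp (1.91-fold), Gadd45a (1.54-fold), the sestrin Sesn2 (1.49-fold), the repair polymerase gene Polk (1.347-fold) and the p53 inhibitor Mdm4 (1.195-fold). The tetraspanin Cd82 fell to 0.803 of its DMSO level. The other 23 genes, among them Trp53, Mdm2, Ccng1 and Apaf1, did not pass the test. All 31 genes passed the low-count filter. A gene was called at an adjusted p under 0.05 in edgeR's quasi-likelihood test over all 11727 tested genes. By that rule 22.6% of the 31 were higher, against 13.3% of all tested genes, and 3.23% were lower, against 6.05%. In either direction 8 of the 31 and 19.3% of all tested genes were called. Their median log2 fold change was 0.05, against -0.01 over all tested genes, and 22 of the 31 had a log2 fold change smaller than 0.3 in size. In bulk RNA, fewer cells of a type and less RNA per cell cannot be told apart.

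With the replicate number added to the fit as a block, 9 of the 31 were higher and 5 lower, against 24.7% and 24.3% of all tested genes. Without both libraries numbered 6 the counts were 9 higher and 3 lower, against 23.9% and 20.9% of all tested genes. All 8 genes named above were called in both fits in the same direction. EZH2i and DMSO libraries did not overlap for Plk2, Phlda3, Perp and Polk, with EZH2i above, nor for Cd82, with EZH2i below. Such separation was seen upward in 7.5% and downward in 2.74% of all tested genes.

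**Figure D1:**
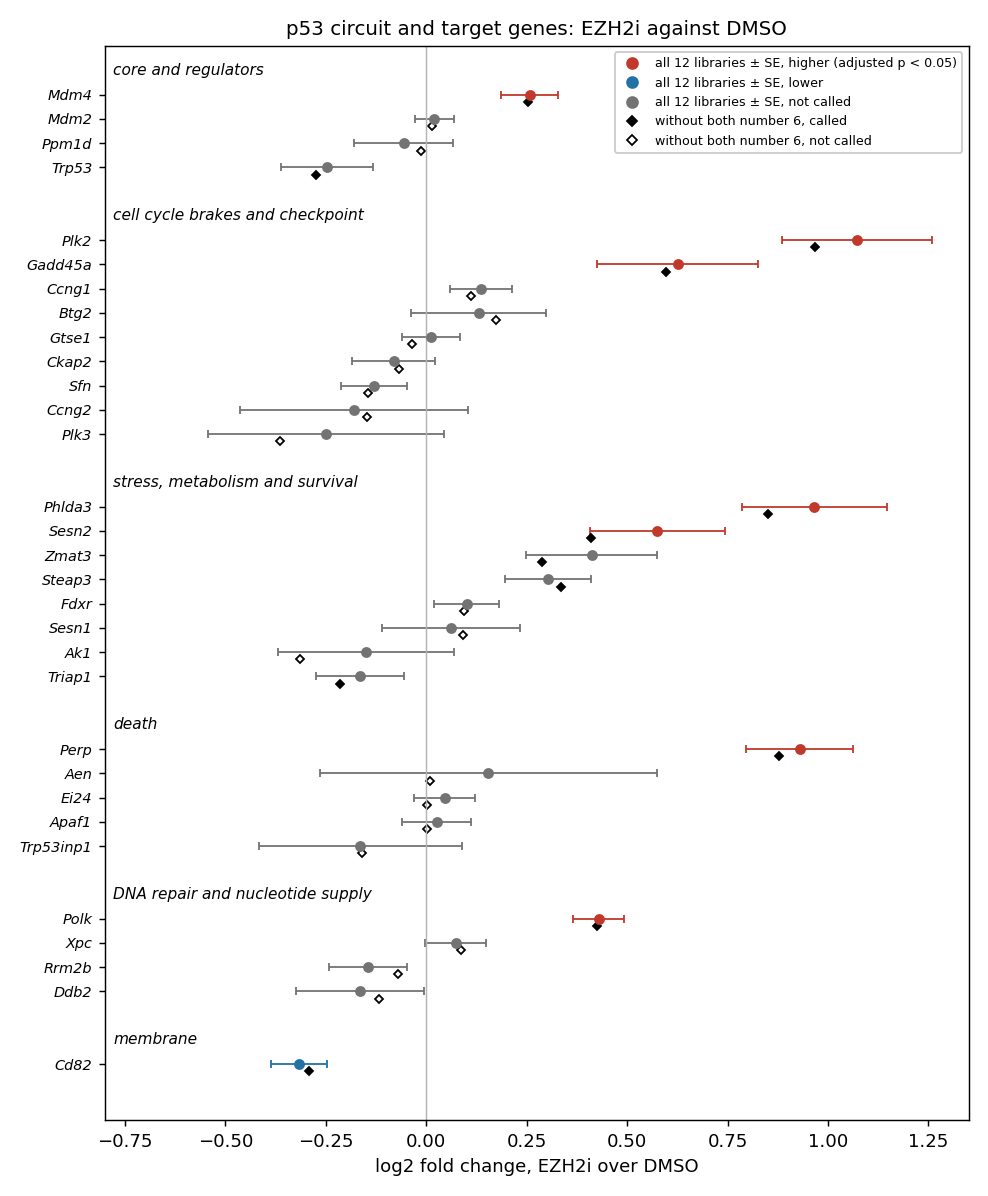
The log2 fold change of each of the 31 genes, EZH2i over DMSO (x axis), grouped by role (y axis); circles with bars are the estimate from all 12 libraries ± SE, coloured by call at adjusted p under 0.05, and diamonds the estimate without both libraries numbered 6, filled where called. Most genes lie within 0.3 of 0, and Plk2, Phlda3 and Perp stand near 1.

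The core of the circuit is Trp53 with the proteins that hold it down: Mdm2, its relative Mdm4, which binds p53 and blocks its activity, and Ppm1d, a phosphatase that ends damage signalling. Trp53 (chromosome 11, 69580359 to 69591873, GRCm38) was at 135 to 195 CPM with EZH2i (median 143), against 141 to 214 CPM with DMSO (median 182). Library 6 was the highest of each group and the groups overlapped, but Trp53 was lower with EZH2i in 6 of 6 same-numbered libraries. Its log2 fold change of -0.25 (SE 0.11) missed the threshold (adjusted p = 0.153), and was called lower with the block (adjusted p = 0.00212), without both libraries numbered 6 (-0.27, adjusted p = 0.00603) and without EZH2i library 6 alone (-0.34, adjusted p = 0.0146). The rest of the core did not share that pattern. Mdm2, transcribed in part from a p53-driven promoter in its first intron, was among the steadiest of the 31, at 83.6 to 94.3 CPM with EZH2i (median 89.3) and 86.7 to 90.2 CPM with DMSO (median 88.3; log2 fold change 0.02, SE 0.05). Ppm1d had 26.7 to 44.4 CPM with EZH2i and 33.2 to 48.4 CPM with DMSO, with library 6 lowest in both groups (adjusted p = 0.793).

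Mdm4 rose modestly. It was at 205 to 239.5 CPM with EZH2i (median 228), against 176 to 226 CPM with DMSO (median 183). The log2 fold change was 0.26 (SE 0.07, adjusted p = 0.0232), and 5 of 6 same-numbered libraries showed the rise. The groups overlapped through DMSO library 4, which at 226 CPM stood far above the other 5 DMSO libraries. The call was lost without any 1 of EZH2i libraries 2, 3 or 5 or DMSO libraries 1, 2 or 3, with an adjusted p of up to 0.0633, while the log2 fold change lay between 0.23 and 0.31 over all single omissions. Of the 75-base windows of Mdm4 transcripts in GENCODE M21, 3.74% also occur in its pseudogene Mdm4-ps, so reads from these are uncertain.

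**Figure D2:**
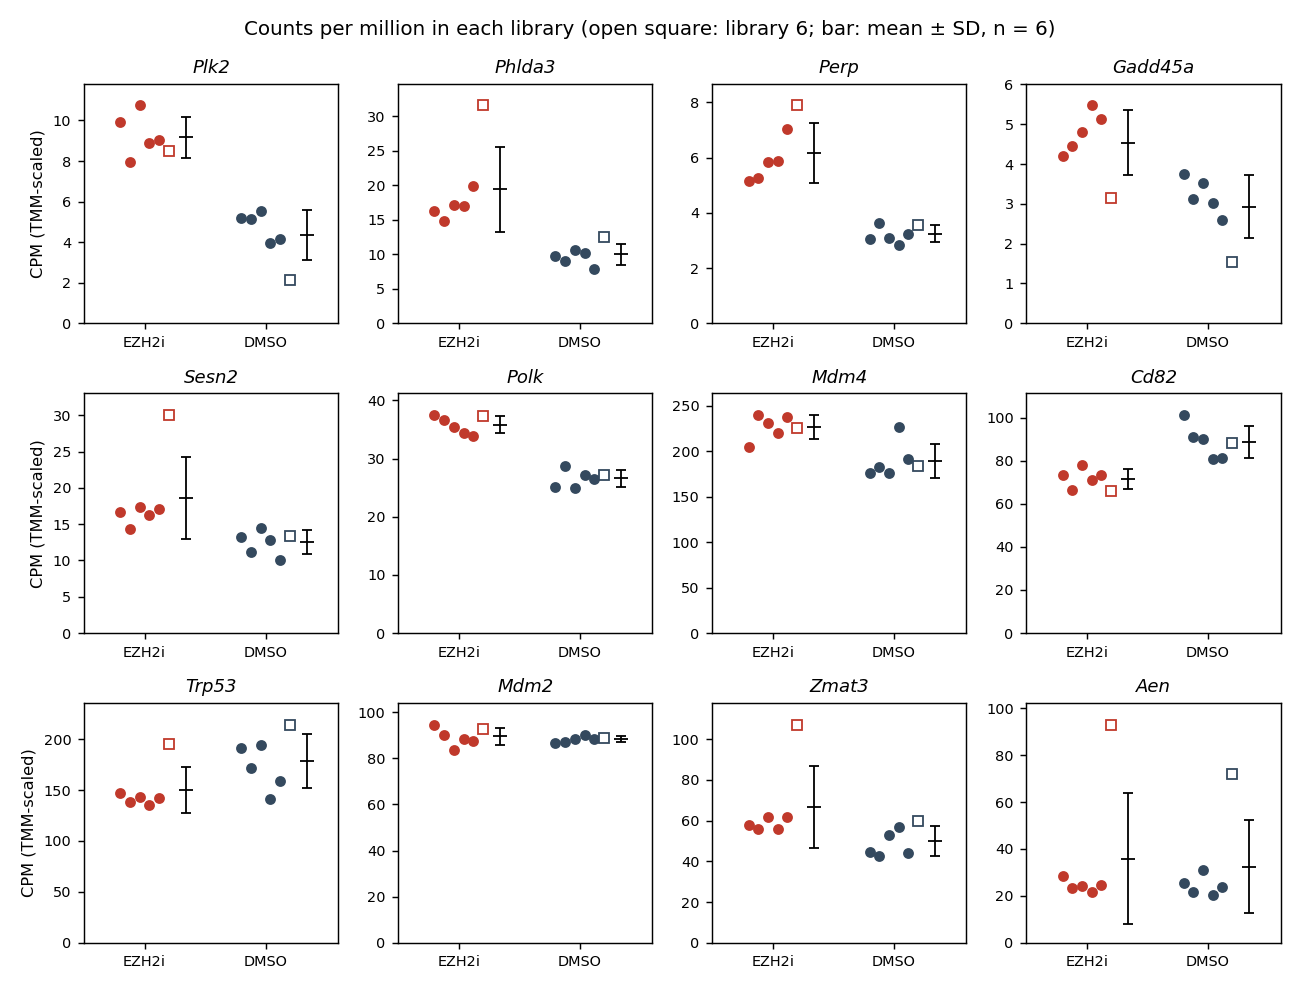
TMM-scaled CPM (y axis, from 0) of 12 genes in each library, EZH2i left and DMSO right, with the mean ± SD (n = 6) beside the points and library 6 as an open square. The EZH2i libraries lie above all DMSO libraries for Plk2, Phlda3, Perp and Polk and below them for Cd82, Mdm2 hardly varies, and library 6 is far above the rest for Aen in both groups.

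Among genes that restrain the cell cycle, Plk2, a polo-like kinase induced by stress, had the largest rise of the 31. It was at 7.94 to 10.7 CPM with EZH2i (median 8.96), against 2.14 to 5.52 CPM with DMSO (median 4.63), with no overlap and the lowest value in DMSO library 6. In log2 terms the rise was 1.07 (SE 0.19, adjusted p = 0.00126), and 0.97 without both libraries numbered 6. Its relative Plk3 had 4.70 to 13.03 CPM with EZH2i and 5.01 to 13.2 CPM with DMSO, the highest value in library 6 in both groups, and a log2 fold change of -0.25 (SE 0.29, adjusted p = 0.611). For Plk3 the value was -0.57 without EZH2i library 6 (adjusted p = 0.0544) and -0.0458 without DMSO library 6 (adjusted p = 0.932). The difference between the fold changes of the 2 kinase genes was not tested. Gadd45a, which slows the cycle after DNA damage, was at 3.16 to 5.47 CPM with EZH2i (median 4.63), against 1.55 to 3.74 CPM with DMSO (median 3.08). It was higher in 6 of 6 same-numbered libraries, but the groups overlapped through EZH2i library 6; library 6 was lowest in each group.

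The log2 fold change of Gadd45a was 0.63 (SE 0.20, adjusted p = 0.0435). The call was lost without any 1 of EZH2i libraries 1 to 5 or DMSO libraries 2, 4 or 5, with an adjusted p of up to 0.0924. On the other strand, 19.1% of its exon bases overlap E230016M11Rik, which was at 0.5683 ± 0.187 CPM with EZH2i and 0.436 ± 0.108 CPM with DMSO (SD, n = 6 each) and was not called. The strand setting of the counting is not given in the sources used here, so part of the reads of either gene could be assigned to the other.

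The remaining cell cycle genes did not pass the test. Ccng1 (cyclin G1), a sensitive p53 target with a p53 site in its promoter window, was at 354 to 484 CPM with EZH2i (median 416) and 359.5 to 403 CPM with DMSO (median 372); the groups overlapped, at a log2 fold change of 0.14 (SE 0.08, adjusted p = 0.254). Ccng2 (cyclin G2), also known as a target of FoxO factors, was at 43.1 to 155 CPM with EZH2i (median 133) and 63.9 to 188 CPM with DMSO (median 147), library 6 being lowest in both groups. Its log2 fold change of -0.18 (SE 0.28, adjusted p = 0.709) was called lower only with the block (-0.21, adjusted p = 0.0138), and not without both libraries numbered 6 (adjusted p = 0.148). Leaving out EZH2i library 6 gave Ccng2 a value of -0.00565 on that scale, leaving out DMSO library 6 gave -0.33 and leaving out DMSO library 4 gave -0.0756, none of them called. Btg2, an antiproliferative gene, and Sfn, the 14-3-3 protein sigma, had log2 fold changes of 0.13 and -0.13. Gtse1, a restrainer of p53 in G2, and Ckap2, a spindle protein, are expressed with the cell cycle as well. Gtse1 was at 88.4 to 94.1 CPM with EZH2i and 74.4 to 102 CPM with DMSO, and Ckap2 at 59.7 to 85.5 CPM with EZH2i and 66.2 to 97.1 CPM with DMSO. The groups overlapped for each gene, and the median log2 fold change of the G2 and mitosis genes beside them was -0.14.

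Among genes of stress, metabolism and survival, Phlda3, whose protein competes with the kinase Akt for membrane lipids, moved most. It was at 14.9 to 31.6 CPM with EZH2i (median 17.0), against 7.86 to 12.5 CPM with DMSO (median 9.97), with library 6 highest in each group and no overlap. On the log2 scale the difference was 0.97 (SE 0.18, adjusted p = 0.00209, higher in 6 of 6), and 0.85 without both libraries numbered 6. Phlda3 lies on chromosome 1 from 135766119 to 135769136. Sesn2, a sestrin that restrains the growth kinase complex mTORC1, was at 14.4 to 30.0 CPM with EZH2i (median 16.9), against 10.02 to 14.5 CPM with DMSO (median 13.04), the high value again being EZH2i library 6. Sesn2 rose by 0.57 on the log2 scale (SE 0.17, adjusted p = 0.0295, higher in 6 of 6) and by 0.41 without both libraries numbered 6 (adjusted p = 0.00269). The groups overlapped slightly, and the call was lost without DMSO library 1, 2 or 5, with an adjusted p of up to 0.0734. The related Sesn1 was at 64.0 to 132 CPM with EZH2i (median 123) and 71.5 to 123 CPM with DMSO (median 117), with library 6 far below the rest in both groups and an adjusted p of 0.843.

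The promoters of Plk2 and Phlda3 are shown as those of the genes that rose most, since Polycomb repressive complex 2 is known to act at CpG-rich promoters. CG dinucleotides are in capitals in the 250 bases before each start.
Plk2, chr13:110394794-110395043, plus strand: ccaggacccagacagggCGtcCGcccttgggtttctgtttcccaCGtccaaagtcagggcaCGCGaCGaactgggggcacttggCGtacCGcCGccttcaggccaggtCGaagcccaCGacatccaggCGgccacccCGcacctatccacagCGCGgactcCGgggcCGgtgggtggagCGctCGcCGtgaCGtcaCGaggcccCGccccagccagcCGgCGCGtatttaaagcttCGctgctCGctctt
Phlda3, chr1:135765835-135766084, plus strand: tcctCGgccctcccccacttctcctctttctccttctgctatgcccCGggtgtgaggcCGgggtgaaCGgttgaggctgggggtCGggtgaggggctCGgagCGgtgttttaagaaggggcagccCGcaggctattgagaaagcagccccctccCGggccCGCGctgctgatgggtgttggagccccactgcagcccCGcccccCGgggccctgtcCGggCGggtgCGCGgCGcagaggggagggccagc
Plk2 held 28 and Phlda3 18 CG dinucleotides in these stretches. Over the whole 300-base window the ratio of observed to expected CG was 0.941 for Plk2 and 0.687 for Phlda3. The median was 0.644 over the 39 windows of the 25 genes that had a window, and 0.384 over all windows in the table. Genes that were not called ranged from 0.0803 in a window of Ak1 to 1.12 for Mdm2 and Apaf1. Of the others that rose, Sesn2 had 0.736, Gadd45a 0.508, Mdm4 0.489 and 0.306, and Polk 0.744 and 0.271. Perp had no window. Cd82, which fell, had 0.58, 0.518, 0.604 and 0.193. A link between this ratio and the response was not tested. Histone methylation was not measured in the libraries used here, so no mark can be set beside these sequences.

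Of the other stress genes, Zmat3, an RNA-binding splicing regulator, was at 55.7 to 107 CPM with EZH2i (median 59.9) and 42.4 to 60.02 CPM with DMSO (median 48.8). Library 6 was highest in both groups, and the groups overlapped. The log2 difference of 0.41 (SE 0.16, adjusted p = 0.0974) was called with the block (adjusted p = 0.00125) and without both libraries numbered 6 (0.29, adjusted p = 0.00752), and was 0.23 without EZH2i library 6 alone (adjusted p = 0.0807). Steap3, an iron reductase of endosomes, was at 11.1 to 13.8 CPM with EZH2i and 8.46 to 11.97 CPM with DMSO, higher in 6 of 6 same-numbered libraries. Its log2 difference of 0.30 (SE 0.11, adjusted p = 0.0639) was called with the block (adjusted p = 0.00412), without both libraries numbered 6 (adjusted p = 0.00855), with upper-quartile scaling and without DMSO library 6 (adjusted p = 0.0232). Triap1, an inhibitor of apoptosis in mitochondria, pointed the other way, at 16.1 to 23.7 CPM with EZH2i and 17.3 to 23.3 CPM with DMSO. Its log2 fold change of -0.17 (adjusted p = 0.327) was called lower with the block (adjusted p = 0.0483), without both libraries numbered 6 (-0.21, adjusted p = 0.0376) and without EZH2i library 6 alone. Fdxr, a reductase of mitochondrial electron transfer, and Ak1, an adenylate kinase, had log2 fold changes of 0.10 and -0.15, and Ak1, at 1.24 to 2.54 CPM with EZH2i and 1.14 to 2.21 CPM with DMSO, was the least expressed of the 31 by CPM per kb.

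Of the genes linked to cell death, Perp rose and the others did not pass the test. Perp, a membrane protein of p53-dependent apoptosis and of desmosomes, was at 5.16 to 7.89 CPM with EZH2i (median 5.84), against 2.85 to 3.65 CPM with DMSO (median 3.17). All EZH2i libraries lay above all DMSO libraries. EZH2i over DMSO, the log2 change was 0.93 (SE 0.13, adjusted p = 0.000302), and 0.88 without both libraries numbered 6. Since Perp is abundant in epithelia, epithelial markers are given beside it. Of 6 markers, Epcam and Krt18 were also called higher, Cdh1 was called higher with the block and without both libraries numbered 6 but not with all libraries, and Krt5, Krt8 and Krt14 had no count in any library. The 6 markers summed to 4.15 to 15.4 CPM with EZH2i and 0.878 to 3.93 CPM with DMSO. The part of epithelial cells in the Perp result was not tested.

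Apaf1, the scaffold of the apoptosome, was at 81.3 to 93.7 CPM with EZH2i and 74.5 to 108 CPM with DMSO, the highest in DMSO library 4, and Ei24, an endoplasmic reticulum protein, at 105 to 138 CPM with EZH2i and 100.1 to 122 CPM with DMSO. Their log2 fold changes were 0.03 and 0.05. Aen, a nuclease of apoptotic DNA breakdown, stood out in library 6, with 92.8 CPM in EZH2i library 6 against 21.7 to 28.6 CPM in the other EZH2i libraries, and 72.0 CPM in DMSO library 6 against 20.5 to 30.9 CPM in the other DMSO libraries. For Aen the log2 fold change was 0.15 (SE 0.42) with all libraries, 0.01 without both libraries numbered 6, and -0.40 without EZH2i library 6 alone. Trp53inp1, a p53 cofactor that promotes apoptosis and autophagy, had the opposite library pattern, with 207 CPM in EZH2i library 6 against 456 to 549 CPM in the others, and 234 CPM in DMSO library 6 against 462 to 737 CPM in the others (log2 fold change -0.16, adjusted p = 0.702). With EZH2i library 6 left out that value was -0.0193, with DMSO library 6 left out -0.31, and with DMSO library 4 left out -0.0208.

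Among DNA repair genes, Polk, the polymerase that copies past damaged bases, rose by a small and even amount. It was at 33.9 to 37.4 CPM with EZH2i (median 35.9), against 24.9 to 28.8 CPM with DMSO (median 26.8), with no overlap. The log2 fold change was 0.43 (SE 0.06, adjusted p = 0.000378), and 0.43 both with the block and without both libraries numbered 6. Library 6 lay within the range of the others in both groups. Polk lies on chromosome 13 from 96480690 to 96542579.

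The other repair and nucleotide supply genes did not pass the test with all libraries. Ddb2, which finds ultraviolet lesions, was at 38.4 to 78.7 CPM with EZH2i (median 73.7) and 54.7 to 87.2 CPM with DMSO (median 77.6), library 6 being lowest in both groups. Its log2 fold change of -0.17 (SE 0.16, adjusted p = 0.528) was called lower only with the block (adjusted p = 0.0256) and was -0.0461 without EZH2i library 6. Of Ddb2, 23.8% of the exon bases overlap Acp2 on the other strand, which was itself called higher (log2 fold change 0.27, adjusted p = 0.0162). Xpc, which recognises distorted DNA, and Rrm2b, the p53-inducible ribonucleotide reductase subunit, had log2 fold changes of 0.07 and -0.15 and overlapping groups.

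Cd82, a tetraspanin of the cell surface and the only one of the 31 called lower with all libraries, was at 65.9 to 78.0 CPM with EZH2i (median 72.2), against 80.7 to 101 CPM with DMSO (median 89.4). No EZH2i library reached the lowest DMSO library. EZH2i over DMSO, the log2 change was -0.32 (SE 0.07, adjusted p = 0.00618, lower in 6 of 6) and -0.29 without both libraries numbered 6. The calls of Plk2, Phlda3, Perp, Polk and Cd82 held when any 1 library was left out.

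Per kb of exon the 31 genes spanned more than 2 orders of magnitude. Ccng1 was highest, at 118 ± 14.1 CPM per kb with EZH2i and 107 ± 4.80 CPM per kb with DMSO (SD, n = 6 each). Trp53inp1 came next, at 68.6 ± 18.6 CPM per kb with EZH2i and 76.8 ± 24.9 CPM per kb with DMSO, then Trp53 and Btg2, whose ranges of mean ± SD overlapped in each group. Trp53 stood at 37.2 ± 5.55 CPM per kb with EZH2i and 44.1 ± 6.52 CPM per kb with DMSO, and Mdm2 at 17.6 ± 0.748 CPM per kb with EZH2i and 17.4 ± 0.250 CPM per kb with DMSO. Plk2 and Perp, which rose, lay at the low end. Plk2 was at 2.04 ± 0.224 CPM per kb with EZH2i and 0.967 ± 0.276 CPM per kb with DMSO, and Perp at 3.16 ± 0.551 CPM per kb with EZH2i and 1.66 ± 0.160 CPM per kb with DMSO.

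**Figure D3:**
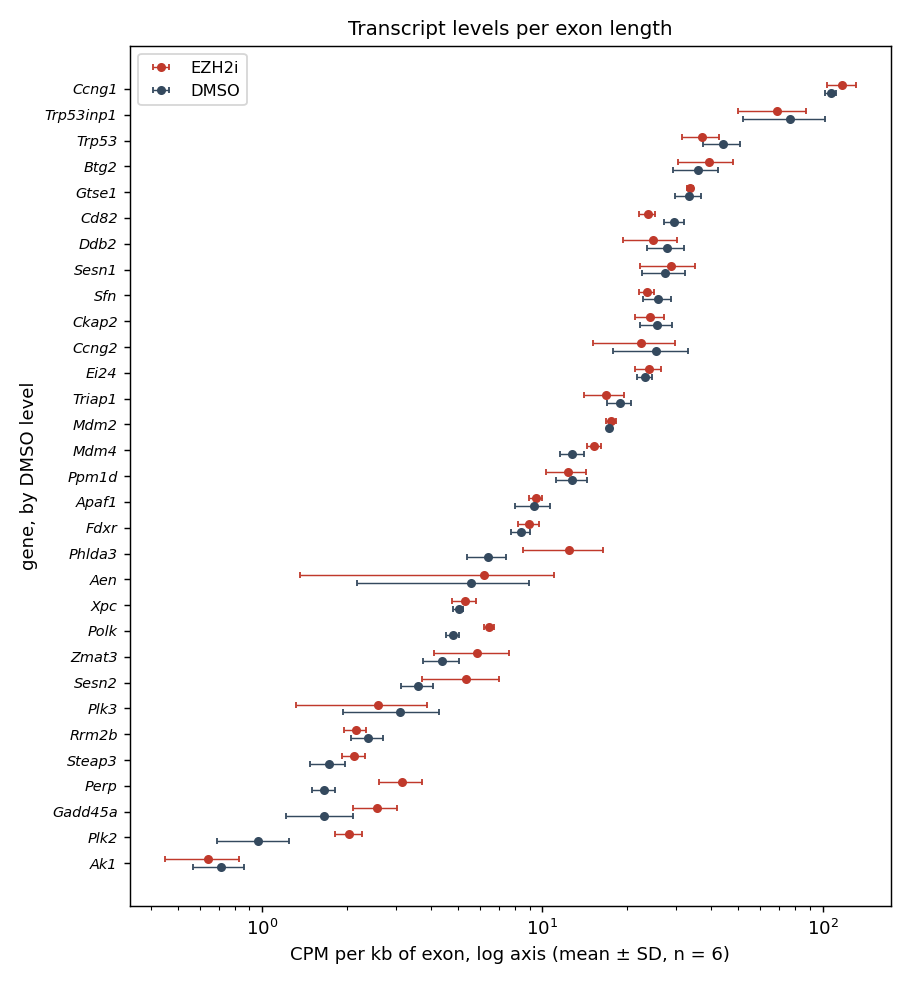
Level of each of the 31 genes in CPM per kb of exon (x axis, log scale; mean ± SD, n = 6), EZH2i in red and DMSO in dark blue, ordered by the DMSO level (y axis). Ccng1 is at the top near 107 CPM per kb with DMSO and Ak1 at the bottom, and Plk2, Gadd45a and Perp are among the lowest genes in both groups.

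Library 6 lay above all 5 others of its own group in both groups for 7 of the 31 genes (Trp53, Plk3, Ccng1, Phlda3, Zmat3, Triap1 and Aen), against 28.5% of all tested genes, and below all 5 in both groups for 8 (Ppm1d, Ccng2, Gadd45a, Btg2, Ckap2, Sesn1, Trp53inp1 and Ddb2), against 31% of all tested genes. No gene of the 31 had library 6 above all 5 others in 1 group and below all 5 in the other. That was seen for 293 of the 11727 tested genes. Smaller shifts differed in sign for Ak1 (0.76 with EZH2i and -0.08 with DMSO, in log2 CPM) and Rrm2b (-0.07 with EZH2i and 0.32 with DMSO). The shares of 22.6% above and 25.8% below in both groups were close to those of all genes. The shifts of library 6 from the mean of libraries 1 to 5, in log2 CPM, that were largest with EZH2i were those of Aen (1.92 with EZH2i and 1.57 with DMSO), Ccng2 (-1.68 with EZH2i and -1.25 with DMSO), Plk3 (1.30 with EZH2i and 0.98 with DMSO) and Trp53inp1 (-1.24 with EZH2i and -1.21 with DMSO). Targets of p53 lay on both sides in library 6, where Aen, Ccng1, Phlda3 and Zmat3 were high and Btg2, Ccng2, Ddb2 and Sesn1 were low.

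**Figure D4:**
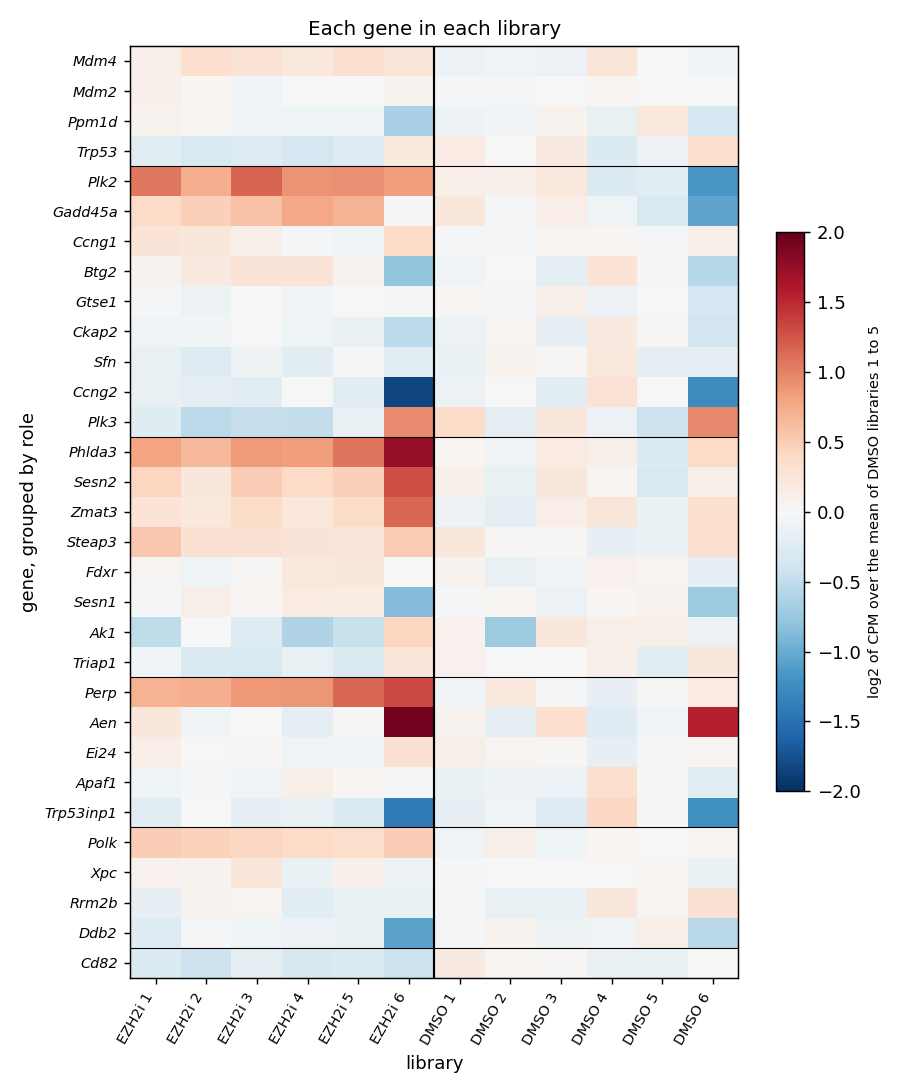
Each of the 31 genes (rows, grouped by role) in each library (columns, EZH2i 1 to 6 and then DMSO 1 to 6), as log2 of CPM over the mean of DMSO libraries 1 to 5; red is higher and blue lower. Plk2, Phlda3, Perp and Polk are red across EZH2i, while Aen is red and Ccng2 and Trp53inp1 are blue in library 6 of both groups.

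Further p53 targets, listed from textbook knowledge, were read from the same fit. Of 22, 21 were tested, and 5 rose and none fell by edgeR, against 13.3% higher and 6.05% lower of all tested genes (8 of the 21 had an unadjusted p under 0.05, and DESeq2 called 6 higher and 0 lower). With the block 10 were higher and 2 lower, against 24.7% and 24.3% of all tested genes. Without both libraries numbered 6, 10 were higher and 1 lower, against 23.9% and 20.9% of all tested genes. Cdkn1a, the cell cycle inhibitor p21, was at 45.9 to 116 CPM with EZH2i (median 56.6), against 28.5 to 44.9 CPM with DMSO (median 36.4), without overlap, and its high value was EZH2i library 6. On the log2 scale it rose by 0.83 (adjusted p = 0.0130), and by 0.63 without both libraries numbered 6. Dram1, a lysosomal protein of autophagy, rose with a log2 fold change of 1.40, at 1.81 to 2.94 CPM with EZH2i and 0.475 to 1.25 CPM with DMSO. Sulf2 (1.01, and 0.72 without both libraries numbered 6), a sulfatase of heparan sulfate, and Trp53cor1 (0.88), the lincRNA-p21, also rose. The fifth, Dglucy (0.41), is named outside the rule for the list, after its value was seen.

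Genes acting upstream of p53 or binding it made up a list of 25, of which 23 were tested, 4 rose and 1 fell. These are 17.4% and 4.35% of the tested genes of the list, near the 13.3% higher and 6.05% lower of all tested genes. Cdkn2a, whose Arf product restrains Mdm2 and whose count does not separate Arf from p16, was at 9.46 to 24.6 CPM with EZH2i (median 12.5), against 0.323 to 1.49 CPM with DMSO (median 0.590), the largest change of the list (log2 fold change 4.36, adjusted p = 3.37e-06). The ASPP genes Ppp1r13b and Trp53bp2, whose proteins steer p53 towards apoptosis genes, rose on the log2 scale. The rise was 0.45 for Ppp1r13b (adjusted p = 0.00142) and 0.29 for Trp53bp2 (adjusted p = 0.0126). The related Ppp1r13l had a log2 fold change of 0.36 and was not called (adjusted p = 0.177). Trp53bp1, a repair protein that binds p53, rose by 0.23 on the log2 scale (adjusted p = 0.0158, 0.0510 without EZH2i library 4 and 0.0509 without DMSO library 5), and Sirt1, a deacetylase of p53, fell by 0.24 on the log2 scale (adjusted p = 0.0272, and 0.0605 without EZH2i library 5). The damage kinases Atm, Atr, Chek1, Chek2 and Prkdc were not called, but Chek1 was called lower with the block and without both libraries numbered 6, and Atr higher with the block. With the block 6 of the list were higher and 6 lower, against 24.7% and 24.3% of all tested genes. Without both libraries numbered 6, 5 were higher and 5 lower, against 23.9% and 20.9% of all tested genes. The family member Trp63 had no count in any library, and Trp73, too low to test, had 38 counts with EZH2i and 1 with DMSO.

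Markers of other cells that a spleen preparation could hold differed in level. The B cell markers Cd79a, Ms4a1 and Pax5 averaged under 1 CPM, as did Cd4 and Cd40lg, the NK cell markers Ncr1 and Klra8, and the myeloid markers Lyz2, Csf1r and Adgre1, and 5 of 5 erythroid and platelet markers did too. Other listed genes were more abundant. Cd79b averaged 18.3 ± 2.15 CPM with EZH2i and 21.8 ± 2.08 CPM with DMSO, and Pecam1, of the endothelial list, 146 ± 43.5 CPM with EZH2i and 163 ± 37.9 CPM with DMSO (SD, n = 6 each). Foxp3 averaged 7.82 ± 1.44 CPM with EZH2i and 6.02 ± 1.99 CPM with DMSO, and Cd68 3.49 ± 1.16 CPM with EZH2i and 4.21 ± 1.07 CPM with DMSO. None of these 4 was called with all libraries, while Cd79b was called lower with the block and without both libraries numbered 6, and with the block Pecam1 was called lower and Foxp3 higher. Some genes of these lists rose with EZH2i, namely Eomes, Klrb1c, Itgam, Itgax and Zbtb7b, as did the stromal marker Pdgfrb. The stroma and endothelium list did not move as a whole. Its Cdh5, too low to test with edgeR, had 20 counts with EZH2i and 60 with DMSO. Col1a1 was called higher only with the block and without both libraries numbered 6. DESeq2 called 1 gene of that list higher and 1 lower. The summed NK cell list was at 92.6 to 304 CPM with EZH2i and 45.3 to 121 CPM with DMSO. Most of that sum was Eomes alone, at 88.5 to 294 CPM with EZH2i and 44.3 to 119 CPM with DMSO. The myeloid list summed to 6.97 to 20.8 CPM with EZH2i and 4.35 to 11.6 CPM with DMSO. The part of these markers in the results for the p53 circuit was not tested.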

How the data were processed

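The authors deposited raw read counts per gene symbol, 1 table of 24421 genes for each of 12 libraries. Per the labels' protocols, libraries were made with a stranded polyA kit and sequenced as single-end reads of 75 bases. Per the submitters' processing notes, the tools were TopHat2 2.1.1 and featureCounts, with Trimmomatic 0.38, FastQC 0.11.7 and SAMtools 1.9, and the build GRCm38 (mm10). The annotation, strand setting and handling of multi-mapping reads: not given in the sources used here.

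Counts were analysed with edgeR 4.0.16 and limma 3.58.1 in R 4.3.3: filterByExpr (11727 genes kept), TMM scaling and the two-sided quasi-likelihood test on group alone, adjusted over all tested genes by Benjamini-Hochberg. The SE is the log2 fold change divided by the square root of F. DESeq2 1.42.0 was an alternative. Alternatives also changed the scaling, the low-count filter, the libraries and the replicate block. The test was checked on simulated counts.

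The members and lists were chosen with earlier results of these data known. Genes given in full were, by rule, those called in any of the 3 fits, the core regulators, paralogues, Gtse1 and Ckap2, and up to 4 called genes per further list and direction.

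As a check of the replicate numbers, each library's deviation from its group mean was compared with that of its same-numbered partner, giving r of 0.213 to 0.847 over genes. All 6 exceeded the limit of 0.1. The main fit left the numbers out, so its calls ignore any pairing. The block fit and the same-numbered comparisons treat the numbers as a pairing, which rests on the data alone, since no label explains a number. Of the 6 numbers, 4 were best matched by their own partner, and 3 and 5 by another number. Without number 6 the lowest r was 0.0371, for number 5, which is under that limit of 0.1. Replicate libraries differed by more than sampling noise (chi-square per degree of freedom at least 4.94).

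Positions, exon lengths, overlaps and shared 75-base windows come from GENCODE M21 (GRCm38), and promoter sequences from RefSeq (GRCm38.p6). All 31 members matched GENCODE by symbol. A planned comparison of member proteins was not run.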

Additional observations from a re-analysis of the deposited data

Results flagged for a closer look

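In each group of 6 libraries, the gap of the highest or lowest value to its nearest neighbour was divided by the range of the group, and values over Dixon's critical value for 6 samples were picked out. Over 62 groups (31 genes in EZH2i and in DMSO), 17 values were picked out, where chance gives about 1 in 20. Of these values, 13 were EZH2i library 6, 2 DMSO library 6 and 2 DMSO library 4. The 62 groups come from the same 12 libraries and are not independent. The rule was not run over all tested genes, so the count shows nothing particular to the 31. Over all tested genes, library 6 lay above all 5 others in both groups for 28.5% and below them for 31%.

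EZH2i library 6 was apart on the high side for Trp53 (195 CPM), Plk3 (13.03 CPM), Sesn2 (30.0 CPM), Phlda3 (31.6 CPM), Zmat3 (107 CPM) and Aen (92.8 CPM). It was apart on the low side for Ppm1d (26.7 CPM), Ccng2 (43.1 CPM), Btg2 (60.8 CPM), Ckap2 (59.7 CPM), Sesn1 (64.0 CPM), Trp53inp1 (207 CPM) and Ddb2 (38.4 CPM). DMSO library 6 was apart for Aen (72.0 CPM, high) and Sesn1 (71.5 CPM, low), the genes picked out for library 6 in both groups. DMSO library 4 was apart on the high side for Mdm4 (226 CPM) and Apaf1 (108 CPM).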

How the results depend on the processing

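The calls of Plk2, Phlda3, Perp, Polk and Cd82 held under every alternative run. Over the 31 genes and the alternatives other than single omissions, 201 results kept direction and side of the threshold, 11 gained a call, 1 lost it (Gadd45a with no low-count filter) and 3 changed sign, none of them called. With the replicate block as the pairing term, 2892 genes were higher and 2849 lower over all genes, 5 of the 31 were lower, the further p53 targets had 10 higher and 2 lower, and 6 upstream genes were lower. Without both libraries numbered 6 these counts were 2815, 2455, 3, 10, 1 and 5. With all libraries they were 1557, 709, 1, 5, 0 and 1. DESeq2 called 1107 genes lower and upper-quartile scaling 347, with 0 upstream genes lower; 83.8% of calls were then higher, against 68.7% with TMM. The sign changed for Ppm1d with upper-quartile scaling (log2 fold change 0.00504), and for Gtse1 with DESeq2 (-0.00414) and without both libraries numbered 6 (-0.0353). The cause of these shifts was not tested.

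With 1 library left out, 435 to 1817 genes were lower, the highest count being without EZH2i library 6 and the lowest without EZH2i library 3, with 439 without EZH2i library 4 and 448 without EZH2i library 5. Of the 31, 4 to 8 were higher (4 without DMSO library 2) and 1 to 3 lower (3 without EZH2i library 6). Of the further targets 0 to 1 were lower (1 without EZH2i library 6), and of the upstream genes 0 to 3 (0 without EZH2i library 5, 3 without EZH2i library 6, and 2 without DMSO library 4 or 6). Log2 fold changes that crossed 0, none of them called, ranged over -0.11 to 0.0306 for Ppm1d, -0.0433 to 0.0343 for Gtse1, -0.0389 to 0.18 for Sesn1, -0.40 to 0.55 for Aen, -0.00949 to 0.0759 for Ei24 and -0.0101 to 0.11 for Apaf1. DESeq2 gave no adjusted p for Aen. Counts limit the low genes most, and genes under the filter were not tested.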
